A study of Mus musculus with 6 samples.

Results

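The genes described here are Pvt1, a long non-coding RNA gene, and 9 protein-coding genes of the MYC network: Myc, Mycn, Mycl, Max, Mxd1, Mxi1, Mxd3, Mxd4 and Mnt. These 10 of 55450 annotated genes were chosen by name for their place in the network. RNA 5′ ends were counted by cap analysis of gene expression (CAGE), in which each sequenced tag marks the position where a capped RNA starts. Nuclear RNA was used from 3 libraries of the mouse embryonic stem cell line R08 (mESC), kept without feeder cells in serum medium with leukemia inhibitory factor, and from 3 libraries of Oli-neu (mOPC), a line that serves as a model of oligodendrocyte progenitor cells and grew in medium with bFGF, PDGF-BB and the thyroid hormones T3 and L-thyroxine. No treatment was named for either line. Oli-neu was made by immortalising progenitors with the t-neu oncogene, each cell type is represented by a single line, and nothing in the labels says whether the libraries of a line came from separate cultures, so p-values measure only the spread between these libraries.

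MYC, MYCN and MYCL are transcription factors that pair with MAX and bind the E-box, mostly near genes for ribosome production, nucleotide synthesis and cell division. MXD1, MXI1, MXD3, MXD4 and MNT pair with the same MAX protein, bind the same motif and bring the SIN3 and HDAC corepressors, so that the network is usually described as a balance of activators and repressors competing for MAX. Pvt1 lies just downstream of Myc on the same strand and is often studied as a regulator of Myc in growth and cancer, and in progenitors of the nervous system MYC genes are linked to proliferation and MXD genes to its end.

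The libraries held 16657021 to 40928704 tags, and levels are given as CPM, the number of tags per 1000000 tags of the library. A single position took 5.38 to 5.92% of the tags of the mOPC libraries and 0.508 to 0.667% of those of the mESC libraries. All mESC files carried 1 library label and all mOPC files another, so library label and cell type cannot be told apart. All 8 embryonic stem cell markers were lower in mOPCs, where 5 had no tag (Pou5f1, Nanog, Zfp42, Tdgf1 and Dppa5a), and all 5 tested progenitor markers were higher, the sixth, Nkx2-2, having no tag in mOPCs. All 4 markers of differentiated oligodendrocytes were also higher in mOPCs, with summed levels of 247.4 to 282.8 against 2.40 to 3.20 in mESCs, and the progenitor markers summed to 1399 to 1494 against 7.23 to 8.16. Of the 3 neuron markers Syt1 was higher in mOPCs and Rbfox3 and Snap25 had no tag there (summed range 80.6 to 101.0 against 8.04 to 8.58), and of the 3 fibroblast markers Col1a1 was higher, Col1a2 had no tag in mOPCs and Col3a1 had 1 (9.67 to 12.3 against 2.32 to 2.40). Of the 3 astrocyte markers Gfap was higher in mOPCs, Aldh1l1 was lower and Aqp4 had no tag there (summed range 0.806 to 1.14 against 7.86 to 10.6). Endoderm markers summed to at most 0.0347 in mOPCs against 21.4 to 25.6, and microglia markers to at most 0.139 in any library. These lists moved with the cell type like the genes below, and their part in any result was not tested.

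The DNA around the main start positions is shown first because the results turn on where these RNAs start. The stretches were read from RefSeq promoter entries on the mm10 (GRCm38.p6) build, which had entries for 8 of the 10 genes, and run 5′ to 3′ on the gene's strand, with the listed main start base and the base after it in capitals. Mycn had the same main start in both cell types (chr12:12941828-12941857, minus strand) and so did Mxd4 (chr5:34187724-34187753, minus strand) and Mxd1 (chr6:86669148-86669177, minus strand). For Max the mOPC main start is shown (chr12:76962210-76962239, minus strand). For Mxi1 the main mOPC start of its first annotated 5′ end (chr19:53310510-53310539, plus strand) and the main mESC start of the third group of its 5′ ends (chr19:53329445-53329474, plus strand) are shown.
Mycn: cccgagcttcaaagcgcagcCAgtgacagt
Max: ggccgatcgggcgtgcgtgcCGccgttgat
Mxd1: gggccgggggcgggcggcggCGagtcggga
Mxd4: gcgtcgactgctgctcgactTAtgtgtcaa
Mxi1, first 5′ end: gacccacacagcgagagcgaCAcacactca
Mxi1, the third group of 5′ ends: cccgtgctcgcgcggagaagTAaacaaacc
RNA polymerase II mostly starts on A or G just after C or T. Of 11 main starts of 7 genes that lay inside an entry, 10 had C or T at the listed position and A or G 1 base downstream, and 0 had that pair ending at the listed position. Over all 32851 promoter entries the pair ending 1 base downstream of the listed position held 64.4 to 67.7% of tags per library and the pair ending at it 6.84 to 7.82%. Listed positions therefore mostly fell on the first base of the usual pair, 1 base upstream of the usual start base, in all 6 libraries. Positions are given here as listed, and the cause was not tested.

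The members' promoter entries, 300 bp each, were searched on both strands for 5 motifs. CACGTG, the E-box bound by MYC and MAX, was present in 3 of the 10 entries, those of Max, Mxd4 and Mnt, and in 7.15% of all entries. CACGCG, a weaker E-box that shares letters with the first and was counted apart from it, was in the entry of Mycl and in 9.27% of all. TATAAA was in the entry of Mycl and in 13.6% of all, CCAAT in those of Mxd1 and Mxd4 and in 37.4%, and GGGCGG in 9 of the 10 and in 35.7%. Entries of 1 gene overlap in part, and a match is a description of the letters only.

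At their annotated 5′ ends (tags within 500 bp of any annotated transcript start of the gene, on its strand), all 10 genes were detected and tested. Pvt1, Myc, Mycl, Mxd1, Mxd4 and Mnt were higher in mOPCs, Mycn and Mxd3 were lower, and Max and Mxi1 did not pass the threshold (edgeR quasi-likelihood test, Benjamini-Hochberg adjusted p under 0.05 over 18490 genes). The 8 of 10 called compare with 91.0% of all genes tested, and the 4 changed at least 4-fold (Mxd4, Myc, Pvt1 and Mycn) with 44.7%. The median log2 difference of the members was 0.72 and that of all tested genes was -0.19. Most genes thus differed between the lines, and the share called among the members was near that of all genes. In bulk samples, fewer cells expressing a gene and less RNA per cell cannot be told apart.

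**Figure D1:**
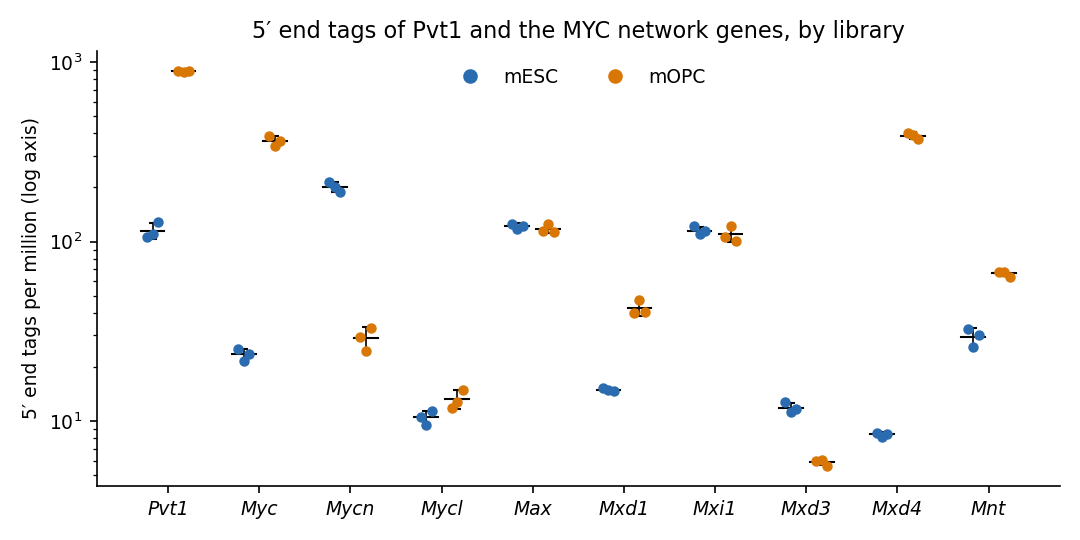
Levels (CPM) at the annotated 5′ ends of each gene (log axis) in the 3 mESC and 3 mOPC libraries, with points for libraries and lines for means ± SD. Mxd4, Myc and Pvt1 sit far higher in mOPCs and Mycn far lower, while the points of Max and Mxi1 overlap.

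Pvt1 (ENSMUSG00000097039.8, chr15:62037986-62378096, plus strand) was the member with the highest level in mOPCs. Its 5′ ends held 105.7, 110.6 and 128.2 CPM in mESCs and 893.4, 880.9 and 894.6 in mOPCs. Every mOPC library lay far above every mESC library, and the mOPC values were closer to each other than the mESC values. The means were 114.8 ± 11.8 and 889.6 ± 7.56 (SD, n = 3), a log2 difference of 2.93 (SE 0.0916, edgeR adjusted p = 7.61e-36). The ratio of means was 7.75, and 32.7% of tested genes had a larger log2 difference in either direction.

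Most Pvt1 RNAs started at the first group of annotated 5′ ends (62037986 to 62038061). This group held 89.5, 92.4 and 109.1 CPM in mESCs and 847.1, 842.4 and 857.2 in mOPCs, with no overlap (log2 difference 3.08, SE 0.0982, edgeR adjusted p = 3.92e-54). A second annotated end, 1271 bp downstream at 62039257, rose much less, from 15.7, 17.7 and 18.3 to 41.6, 34.5 and 34.0 (log2 difference 1.04, SE 0.103, edgeR adjusted p = 6.58e-17). Its share of the gene's 5′ end tags fell from 15.0 ± 0.857% to 4.12 ± 0.466% (n = 3). The share was lower in every mOPC library, and in the test of 5′ end usage, which sets each group against the sum of its gene's tested groups, the log2 change was -1.87 (edgeR diffSpliceDGE, adjusted p = 7.59e-41). The first group took 84.4 ± 0.798% in mESCs and 95.4 ± 0.529% in mOPCs, with a usage change of 0.17 that missed the threshold (adjusted p = 0.132). Of the other 4 annotated groups only the one at 62178175 had enough tags for a test, with 0.231 ± 0.0642 CPM in mESCs and 2.68 ± 0.524 in mOPCs (log2 difference 3.35). It had enough tags only in mOPCs, so it had to differ. None of the start clusters described below lay within 500 bp of this end.

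Within the first group the tags spread over a broad stretch in both lines. The central 80% of its tags spanned 53 to 58 bp in mESC libraries and 50 bp in each mOPC library. The position used most differed between the lines: it was 62038001 in all 3 mESC libraries, with 19.4 ± 0.783% of the group's tags, and 62038028 in 2 of 3 mOPC libraries, with 11.5 ± 0.114%. The third mOPC library put almost equal numbers of tags on both, 4007 and 4006. Position 62038001 took 10.3% of the group in mOPCs on average, and 62038028 took 13.1% in mESCs. A neighbouring position, 62038033, took 3.08% in mESCs and 7.98% in mOPCs.

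Start clusters were defined as positions with a level of at least 1 CPM in at least 1 library, joined when at most 20 bp apart. Pvt1 held 16 such clusters, of which 4 lay at annotated 5′ ends and 12 elsewhere, all 12 in introns. Because a cluster needs 1 CPM in a single library, a cluster found only through the line where it is high had to differ, and the counts of rises below describe the list only. Over all members 44 of 45 clusters were called (31 higher, 13 lower), beside 91.7% of all 33813 clusters. Some of the lower calls were lost under alternatives: that of 1 Mxd1 cluster at 86669186 with DESeq2, with library totals and without mESC library 1 or any 1 mOPC library, that of the Mnt cluster at 74830897 to 74830914 with library totals and without mESC library 1 or 3 or mOPC library 1 or 3, and that of the Mnt position 74830854 without mESC library 1 or mOPC library 3. In Pvt1, 15 clusters were higher in mOPCs and 1, at 62037660, was lower (0.924 ± 0.187 to 0.134 ± 0.119 CPM). Among all clusters 45.4% were called higher in mOPCs.

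The main cluster, 62037978 to 62038094, was 117 bp wide and held 81.4, 83.9 and 100.2 CPM in mESCs and 830.7, 827.3 and 841.9 in mOPCs. A position 189 bp upstream of the annotated start, 62037797, had 4 tags in 1 mESC library, none in the other libraries of that line, and 1.43 ± 0.0724 CPM in mOPCs. The cluster at the second annotated end (62039222 to 62039289) held 12.7, 12.2 and 14.2 in mESCs and 26.3, 22.9 and 23.7 in mOPCs (log2 difference 0.64, SE 0.124, edgeR adjusted p = 3.38e-07).

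Among the clusters away from annotated ends, those with the highest levels lay far from the annotated start of the gene. The cluster at 62204528 to 62204529, 166542 bp downstream, held 0.554, 0.180 and 0.271 CPM in mESCs and 6.43, 8.46 and 9.53 in mOPCs (log2 difference 4.11, SE 0.244). The cluster at 62199684 to 62199688 held 0.261 ± 0.228 in mESCs, with none in the third library, and 4.16 ± 1.12 in mOPCs. Both reached 1 CPM only in mOPC libraries, as did the positions named next, so all of them had to be higher there. The position 62246116, 208130 bp from the start, had 3 tags over all mESC libraries and 3.04 ± 0.249 CPM in mOPCs, and 62148889 had 6 mESC tags and 2.13 ± 0.305 CPM in mOPCs.

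The other 8 intronic clusters were single positions at low levels. Those at 62040414, 62042126, 62061592, 62090362 and 62115187 had means of 0.814 to 1.20 CPM in mOPCs and 0.0176 to 0.192 in mESCs. Those at 62044023, 62048002 and 62246460 had no tag in mESCs and were at least 18.0-fold, 15.9-fold and 21.2-fold higher in mOPCs, counting 3 tags over the mESC libraries as the limit. Each of the 8 rested on 19 to 41 tags per mOPC library.

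Away from its annotated 5′ ends, the body of Pvt1 held 32.0, 29.0 and 37.4 CPM in mESCs and 310.6, 317.1 and 307.2 in mOPCs. The ratio of means was 9.50, and per kb of gene the level was 0.0981 in mESCs and 0.932 in mOPCs. The edgeR fit of body tags, which rescales libraries on the body tags of all genes, gave a log2 difference of 2.44 (SE 0.0905, adjusted p = 4.12e-50). In both lines nearly all body tags lay in introns, 97.4% in mESCs and 97.7% in mOPCs, with overlapping libraries (two-sided exact permutation test, p = 0.6). Over the whole gene, 5′ end tags included, Pvt1 tags fell on 552 to 1160 different positions per mESC library and 4624 to 8031 per mOPC library, and 73.9 to 78.2% of these positions had a single tag.

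Body tags were not spread evenly along the 340111 bp of the gene. In bins of 20 kb the first bin held 6.61 CPM in mESCs and 41.3 in mOPCs, which was 20.1% of body tags in mESCs and 13.3% in mOPCs. All mOPC libraries were above all mESC libraries in 17 of 18 bins, the last one being a remainder of the gene with no tags. The lowest ratio, 5.73, was found between 40 and 60 kb. Between 200 and 220 kb the level was 1.64 in mESCs and 40.5 in mOPCs, a ratio of 24.8, and between 220 and 240 kb it was 0.259 and 10.7. Beyond 240 kb both lines had few tags, at most 1.34 CPM per bin in mOPCs.

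**Figure D2:**
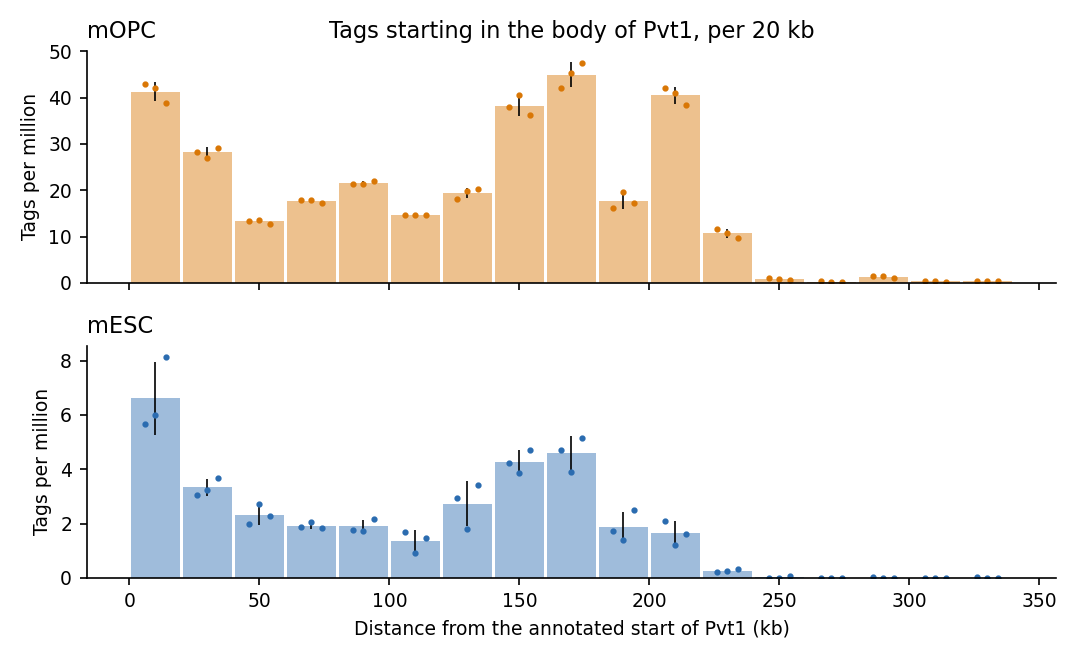
Tags starting in the body of Pvt1 per 20 kb (CPM) against distance from its annotated start (kb), for mOPCs above and mESCs below on separate axes. Bars are means, points are libraries and error bars are SDs. Tags extend to about 240 kb, and the bin from 200 to 220 kb is high in mOPCs (40.5) and low in mESCs (1.64).

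Of 12 other annotated genes within 500000 bp of Myc or Pvt1, 3 reached 1 CPM, and all 3 are short RNA annotations inside Pvt1 on its strand. Gm27913, placed at the main Pvt1 start, counted the same tags (96.9 ± 10.6 to 848.5 ± 7.56), so its values are not separate from those of Pvt1. Gm27718 had 0.266 ± 0.103 in mESCs and 2.40 ± 0.295 in mOPCs, and Gm27957 had 0.302 ± 0.0824 and 1.59 ± 0.126. Both annotations are also read from RNA starts within Pvt1.

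Myc (ENSMUSG00000022346.15, chr15:61985391-61990374, plus strand), the founding gene of the network, rose with Pvt1 but from a lower level. Its 5′ ends held 25.3, 21.6 and 23.6 CPM in mESCs and 389.1, 341.0 and 362.7 in mOPCs. The lowest mOPC library was many times above the highest mESC library. Means were 23.5 ± 1.84 and 364.3 ± 24.1 (n = 3), a ratio of 15.5 and a log2 difference of 3.92 (SE 0.0968, edgeR adjusted p = 8.15e-41), and 25.3% of tested genes differed more.

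Myc is known to start from a pair of neighbouring promoters, P1 and P2, of which the downstream one usually gives most RNA. Here the tags fell into clusters at 61985384 to 61985391 and 61985546 to 61985554, 162 bp apart. The upstream cluster held 4.75, 4.38 and 4.94 CPM in mESCs and 39.8, 54.4 and 40.1 in mOPCs (log2 difference 2.99, SE 0.134). The downstream cluster held 16.3, 12.7 and 14.0 in mESCs and 298.1, 237.8 and 280.8 in mOPCs (log2 difference 3.97, SE 0.121). The downstream cluster was the larger in every library. Its share of both was 77.4, 74.3 and 73.9% in mESCs and 88.2, 81.4 and 87.5% in mOPCs. These shares were fully separated, with p = 0.1 in a two-sided exact permutation test, which cannot go lower with 3 libraries a line. A single position, 61985549, took 64.0 ± 2.07% of the first group's tags in mESCs and 70.2 ± 3.77% in mOPCs.

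The remaining Myc starts were weak. A second group of annotated ends, 61987034 to 61987422, held 2.95 ± 0.381 CPM in mESCs and 30.1 ± 3.29 in mOPCs, and its share fell from 12.6 ± 2.05% to 8.28 ± 0.855% (usage change -0.59, edgeR diffSpliceDGE adjusted p = 0.000338). The start codon of the main protein, annotated at 61987522, lies downstream of both groups. All 6 clusters of Myc were higher in mOPCs, beside 45.4% of all clusters. The 4 of them that were single positions reached 1 CPM only in mOPCs, so they had to be higher there. Since Pvt1 rose less than Myc, the ratio of Pvt1 to Myc 5′ end tags was lower in mOPCs, 2.45 ± 0.145 against 4.91 ± 0.651 in mESCs, with no overlap (exact permutation p = 0.1).

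Mycn (ENSMUSG00000037169.15, chr12:12936093-12941914, minus strand), the paralog known from embryonic and neural tissues, went the other way. At its 5′ ends Mycn held 214.4, 202.1 and 187.8 CPM in mESCs and 29.6, 24.7 and 33.1 in mOPCs. The highest mOPC library was well below the lowest mESC library. Means were 201.4 ± 13.4 and 29.1 ± 4.24, a level 6.92-fold lower in mOPCs (log2 difference -2.81, SE 0.0977, edgeR adjusted p = 4.52e-29). It had the highest level of all members in mESCs.

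Mycn RNAs started within a few bases of each other. The central 80% of tags at its main 5′ end spanned 5 to 6 bp, and the position printed above, 12941837, took 57.9 ± 0.525% of them in mESCs and 56.9 ± 0.0572% in mOPCs. The main start thus kept its place and its share while the level fell. A second annotated end at 12940616, 1298 bp downstream, was used almost only in mESCs. It held 7.34, 7.44 and 6.51 CPM there and 0, 0.0694 and 0.0489 in mOPCs, where it had 4 tags in all. Its share fell from 3.52 ± 0.140% to 0.143 ± 0.141% (usage change -4.41). The end had enough tags for a test only in mESCs, so it had to be lower in mOPCs. A position beside it, 12940608, had 168 tags in mESCs and 0 in mOPCs and was at least 70.4-fold higher in mESCs. That position reached 1 CPM only in mESCs, so it also had to be lower in mOPCs.

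Mycl (ENSMUSG00000028654.13, chr4:122995652-123002485, plus strand), the third paralog, was low in both lines. Its 5′ ends held 10.5, 9.55 and 11.4 CPM in mESCs and 11.9, 12.8 and 15.0 in mOPCs. The groups did not overlap but nearly touched. The log2 difference was 0.31 (SE 0.120, edgeR adjusted p = 0.0131), and the call was lost without mESC library 2 (0.24, adjusted p = 0.0954) and without mOPC library 3 (0.21, adjusted p = 0.131). Its start clusters did not move alike: 122995950 to 122995952 held 1.68 ± 0.214 in mESCs and 4.52 ± 0.618 in mOPCs (log2 difference 1.20, edgeR adjusted p = 4.88e-09), whereas 122996075 to 122996077 held 2.41 ± 0.0336 and 2.44 ± 0.139 (-0.24, adjusted p = 0.268).

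Within the summed 5′ end tags of Myc, Mycn and Mycl, which needs no scaling between libraries, the leading gene changed. Myc took 10.1, 9.27 and 10.6% in mESCs and 90.4, 90.1 and 88.3% in mOPCs. Mycn took 85.5 ± 1.18% in mESCs and 7.15 ± 0.810% in mOPCs, and Mycl 4.47 ± 0.560% and 3.26 ± 0.455%. None of these shares overlapped between lines, and each exact permutation p was 0.1, the smallest possible. The sum itself was 235.4 ± 13.9 CPM in mESCs and 406.6 ± 26.3 in mOPCs, a ratio of 1.73, much smaller than the change of either Myc or Mycn alone.

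**Figure D3:**
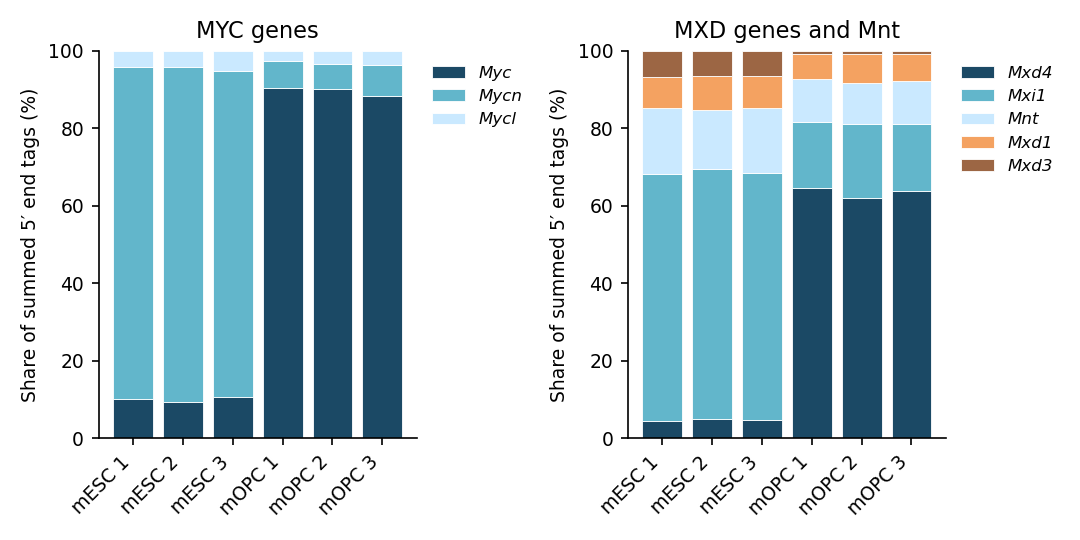
Shares (%) of the summed 5′ end tags of the MYC genes (left) and of the MXD genes with Mnt (right), one bar per library. Mycn fills most of the left bars in mESCs and Myc in mOPCs, and on the right Mxi1 leads in mESCs and Mxd4 in mOPCs.

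Max (ENSMUSG00000059436.13, chr12:76937269-76962201, minus strand), the shared partner, had similar levels in both lines. The 5′ ends of Max held 125.8, 118.1 and 122.6 CPM in mESCs and 115.1, 125.1 and 112.4 in mOPCs. The groups overlapped. The log2 difference was -0.08 (SE 0.0818, edgeR adjusted p = 0.345), and 97.0% of tested genes differed more. The most used position was 76962200 in mESCs, with 20.7 ± 0.734% of tags, and 76962219, 19 bp further upstream, in 2 of 3 mOPC libraries, with 15.3 ± 0.993%. At the level of the start cluster, where edgeR rescaled libraries on clusters, the fitted log2 difference was -0.30 (adjusted p = 0.00568) although the CPM overlapped, and this call was lost when library totals replaced that scaling (-0.04, adjusted p = 0.645) and without mOPC library 1 (-0.17, adjusted p = 0.0824).

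Mxd4 (ENSMUSG00000037235.13, chr5:34173883-34187720, minus strand), a repressor partner of MAX often found in cells that leave the cycle, changed most of all members. At its 5′ ends Mxd4 held 8.60, 8.16 and 8.47 CPM in mESCs and 401.9, 394.4 and 371.1 in mOPCs. The spread within either line was small beside this gap. Means were 8.41 ± 0.225 and 389.1 ± 16.0, a ratio of 46.3 and a log2 difference of 5.50 (SE 0.104, edgeR adjusted p = 2.05e-46), and 18.6% of tested genes differed more. The main start printed above, 34187733, was the same in both lines, but its share of the first group fell from 26.8 ± 4.46% to 11.2 ± 0.541%. The tags of the central 80% spanned 49 to 71 bp in mESCs and 77 to 81 bp in mOPCs.

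Mxd1 (ENSMUSG00000001156.9, chr6:86647042-86669161, minus strand), known from differentiating blood and skin cells, rose to a lesser degree. The level at its 5′ ends was 15.3, 14.8 and 14.6 CPM in mESCs and 39.9, 47.0 and 40.3 in mOPCs. The groups were well apart (log2 difference 1.48, SE 0.0980, edgeR adjusted p = 1.27e-20). Both lines used 86669157 most, at 30.1 ± 2.92% and 33.2 ± 1.13% of tags, while the central 80% narrowed from 66 to 67 bp in mESCs to 41 to 43 bp in mOPCs.

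Mnt (ENSMUSG00000000282.12, chr11:74830920-74845725, plus strand), a widely expressed repressor that opposes MYC, was also higher in mOPCs. Its 5′ ends held 32.5, 26.0 and 30.01 CPM in mESCs and 68.0, 67.5 and 63.5 in mOPCs, with no overlap (log2 difference 1.13, SE 0.0922, edgeR adjusted p = 5.63e-17). Its starts spread out in mOPCs: the central 80% of the first group spanned 97 to 104 bp in mESCs and 330 to 343 bp in mOPCs. A cluster 339 bp into the gene, 74831259 to 74831264, held 0.630 ± 0.0318 in mESCs and 3.77 ± 0.385 in mOPCs (log2 difference 2.29). This cluster reached 1 CPM only in mOPCs, so it had to be higher there. The third annotated end, at 74837468, held 0.509 ± 0.260 and 2.50 ± 0.150, and its share rose from 1.69 ± 0.806% to 3.76 ± 0.111% (usage change 1.07, edgeR diffSpliceDGE adjusted p = 0.000555). It had only 20, 4 and 14 tags in the mESC libraries. Only in mOPCs did every library have enough tags for the filter, so its rise was partly set by that filter. None of the Mnt start clusters lay within 500 bp of this end.

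Mxd3 (ENSMUSG00000021485.14, chr13:55325168-55329823, minus strand), the MXD gene tied to dividing cells, was the only MXD gene called lower in mOPCs. At its 5′ ends Mxd3 held 12.7, 11.2 and 11.7 CPM in mESCs and 6.02, 6.07 and 5.62 in mOPCs. All mOPC libraries were below all mESC libraries (log2 difference -1.05, SE 0.128, edgeR adjusted p = 7.47e-11). Of its start clusters, 55329759 to 55329772 fell from 2.82 ± 0.101 to 0.409 ± 0.157 (log2 difference -2.96) and 55329732 to 55329733 from 3.02 ± 0.457 to 1.81 ± 0.211 (-1.03, edgeR adjusted p = 1.27e-06). The first of these reached 1 CPM only in mESCs, so it had to be lower in mOPCs.

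Mxi1 (ENSMUSG00000025025.14, chr19:53310518-53375810, plus strand), also called Mxd2, had nearly the same total in both lines but started at different places. Summed over its annotated 5′ ends it held 121.4, 109.6 and 114.3 CPM in mESCs and 106.6, 121.9 and 101.3 in mOPCs. The groups overlapped (log2 difference -0.09, SE 0.0844, edgeR adjusted p = 0.294). With windows of 100 bp in place of 500 bp the difference was -0.25 and passed the threshold (adjusted p = 0.00478).

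The first annotated end of Mxi1, at 53310518, held 5.81, 5.70 and 5.37 CPM in mESCs and 51.9, 65.6 and 52.0 in mOPCs (log2 difference 3.27, SE 0.115, edgeR adjusted p = 4.34e-50). The window of the second, at 53313066, held 0.528, 0.540 and 0.923 in mESCs and 13.5, 12.5 and 12.5 in mOPCs (4.27, SE 0.196, adjusted p = 4.72e-40). The only start cluster in this window was not at the annotated end but at the intronic position 53313429. That position had 3 tags in mESCs and 4.56 ± 0.715 CPM in mOPCs. It reached 1 CPM only in mOPCs, so it had to be higher there. The third group, 53329413 to 53330408, held 114.2, 102.1 and 107.1 in mESCs and 40.6, 43.4 and 36.5 in mOPCs (-1.48, SE 0.0900, adjusted p = 2.42e-30). The first pair rose and the third fell, with no overlap in any of them. The fourth end, at 53370023, was low, at 1.01 ± 0.221 in mESCs and 0.477 ± 0.179 in mOPCs. Only in mESCs did every library have enough tags for the filter, so its fall was partly set by that filter. Away from annotated ends, the intronic position 53322880 had 60 tags in mESCs and 0 in mOPCs. This position reached 1 CPM only in mESCs, so it had to be lower in mOPCs.

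As shares of Mxi1 5′ end tags, the first end took 4.90 ± 0.271% in mESCs and 51.3 ± 2.61% in mOPCs (usage change 3.38, edgeR diffSpliceDGE adjusted p = 3.39e-73). The second, counted over its whole window, took 0.578 ± 0.200% and 11.8 ± 1.32% (4.38, adjusted p = 6.18e-58). The third group took 93.6 ± 0.469% and 36.5 ± 1.33% (-1.36, adjusted p = 2.50e-30). The major start of the gene thus differed between the lines. The annotation places the start codon of transcript Mxi1-201, which begins at the first end, at 53310700, and that of Mxi1-203 and Mxi1-209, which begin in the third group, at 53329648. The other 4 coding transcripts of the third group, Mxi1-202 among them, have it at 53331386, as has Mxi1-208 of the second end. In the sequences printed above, the main mOPC start of the first end reads CA and the main mESC start of the third group, which led in 2 of 3 mESC libraries, reads TA. The position of the third group with the highest mean level in mOPCs, 53329491, reads CG and led in none of the single mOPC libraries.

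**Figure D4:**
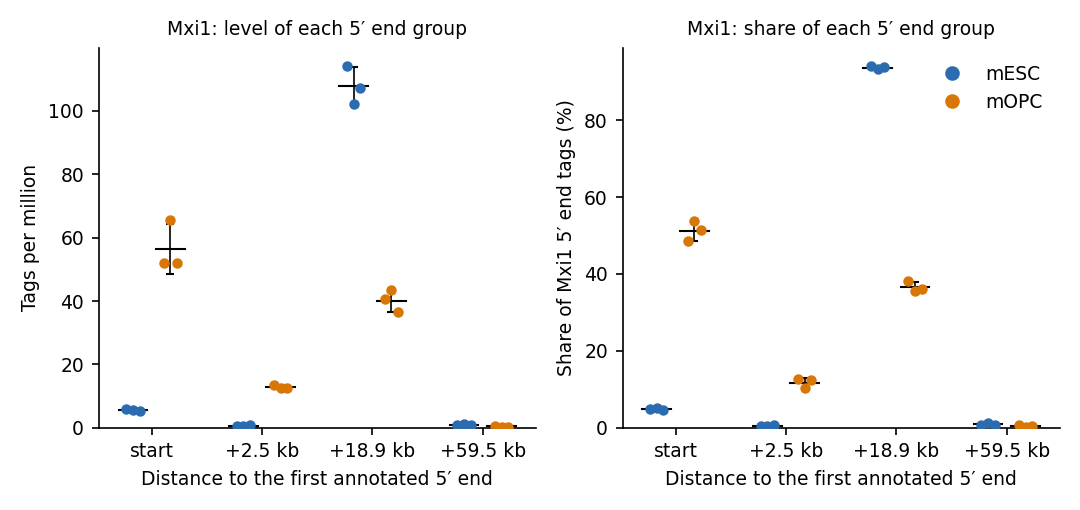
Level (CPM, left) and share (%, right) of the 4 groups of annotated Mxi1 5′ ends, placed by their distance to the first end, with points for libraries and lines for means ± SD. The first end rises from 4.90% of tags in mESCs to 51.3% in mOPCs, and the third group falls from 93.6% to 36.5%.

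Over the members, 29 groups of annotated 5′ ends were defined and 20 had enough tags for a test, of which 14 were higher and 5 lower in mOPCs, beside 89.7% of all 23609 groups called. For 5′ end usage 16 groups were tested and 8 called, beside 48.3% of all 8555 groups. The 8 belonged to Pvt1, Myc, Mycn, Mxi1 (all 4 of its groups) and Mnt, and the call of the fourth Mxi1 group was lost without mOPC library 2 (edgeR diffSpliceDGE adjusted p = 0.0526). The calls of the only Mycl group and the second Mnt group tested were lost under 6 and 5 of the alternatives. The group not called, the first of Max (-0.11, edgeR adjusted p = 0.222), passed as lower under 5, among them DESeq2 (-0.20, adjusted p = 0.0145), no filter (-0.33, adjusted p = 0.00161) and leaving out mESC library 2 (-0.27, adjusted p = 0.0105) or 3 (-0.24, adjusted p = 0.0273). A group that passed the filter only through the line where it is high had to differ.

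Within the summed tags of the repressor genes, Mxi1 took 64.0 ± 0.455% in mESCs and 17.9 ± 1.09% in mOPCs, and Mxd4 took 4.69 ± 0.151% and 63.4 ± 1.36%. Mnt took 16.4 ± 0.936% and 10.8 ± 0.184%, Mxd1 8.30 ± 0.386% and 6.90 ± 0.489%, and Mxd3 6.60 ± 0.0692% and 0.962 ± 0.00804%. None of the 5 shares overlapped between lines (exact permutation p = 0.1 for each). The repressor genes summed to 179.8 ± 10.4 CPM in mESCs and 613.7 ± 28.6 in mOPCs, a ratio of 3.41, while Max was at 122.2 ± 3.89 and 117.6 ± 6.71. The ratio of the summed MYC genes to the summed repressor genes was 1.31 ± 0.0652 in mESCs and 0.664 ± 0.0609 in mOPCs. This ratio covers the members only. Mga, another repressor that pairs with MAX, was not in the sum and went the other way, from 122.6 ± 9.03 CPM in mESCs to 27.8 ± 2.53 in mOPCs. The ratio is therefore no measure of all repressors of the network. These sums count RNA starts and not protein.

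In order of 5′ end level, mESCs had Mycn first, then Max, Mxi1 and Pvt1 with overlapping ranges, then Mnt, Myc, Mxd1, the overlapping Mxd3 and Mycl, and Mxd4 last. In mOPCs the order was Pvt1, then Mxd4 and Myc with overlapping ranges, Max and Mxi1 with overlapping ranges, Mnt, Mxd1, Mycn, Mycl and Mxd3. CAGE counts RNA starts whatever the length of the RNA. The windows differ in total width between genes and only nuclear RNA was counted. How far levels compare between genes was not tested, so the order is a description. The last gene in mESCs, Mxd4, was thus among the leading ones in mOPCs, and the first in mESCs, Mycn, was among the lowest.

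In gene bodies, CPM of the 10 members did not overlap between lines, for Mxd3 on only 22 tags in mESCs and 9 in mOPCs. The share of all genes without such overlap was not counted, so the members cannot be set against it. In the edgeR fit 9 were tested and 7 called, 5 higher (Pvt1, Myc, Mxd1, Mxi1 and Mxd4) and 2 lower (Mycn and Mycl), beside 82.0% of all 14694 genes called and 41.2% called higher. The scaling matters here, since scaling by library totals moved the median of all genes from 0.01 to 0.82. Max and Mnt, which missed the threshold at -0.21 (adjusted p = 0.162) and -0.20 (adjusted p = 0.159), were at 0.60 (adjusted p = 7.89e-05) and 0.61 (adjusted p = 2.79e-05) with library totals. They also passed the threshold as lower without a single library, Max without mOPC library 3 (-0.39, adjusted p = 0.0225) and Mnt without mESC library 1 (-0.33, adjusted p = 0.0430). The body of Mxi1 held 5.62, 5.34 and 6.13 CPM in mESCs and 24.5, 24.7 and 24.9 in mOPCs (log2 difference 1.31, edgeR adjusted p = 2.05e-24). The body of Mxd4 held 0.110 ± 0.106 and 9.88 ± 1.44, that of Myc 0.895 ± 0.368 and 6.61 ± 0.717, and that of Mycn 3.21 ± 0.734 and 0.403 ± 0.0789.

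The share of a gene's tags that started in its body was highest for Pvt1. It was 23.3, 20.8 and 22.6% in mESCs and 25.8, 26.5 and 25.6% in mOPCs, a small rise with no overlap. For Mxi1 the share rose from 4.72 ± 0.339% to 18.4 ± 1.47%, and for Max from 3.01 ± 0.398% to 4.64 ± 1.00%. For Myc it fell from 3.61 ± 1.17% to 1.79 ± 0.306% and for Mycl from 4.58 ± 0.381% to 1.82 ± 0.285%. For Mnt it was 12.6 ± 2.25% and 8.64 ± 0.652%, a difference that turned to the opposite sign with 100 bp windows. For Mycn, Mxd1, Mxd3 and Mxd4 the lines overlapped. Each of the 6 shares without overlap had an exact permutation p of 0.1. Over all genes the body share was 8.19 to 8.53% in mESCs and 14.8 to 15.3% in mOPCs.

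Tags on the opposite strand at the first 5′ end of a gene, which mark divergent or antisense RNAs, moved like the gene itself for several members. At Pvt1 they were 1.10 ± 0.393 CPM in mESCs and 12.3 ± 1.54 in mOPCs, at Myc 0.561 ± 0.0912 and 8.84 ± 1.94, and at Mxd4 3.05 ± 0.652 and 33.6 ± 2.59. At Mxd3 they fell from 3.36 ± 0.757 to 0.804 ± 0.266. None of these overlapped (exact permutation p = 0.1 for each). At Pvt1 and Myc they made up 0.962 to 2.43% of the sense tags in either line, and at Mxd4 36.2% in mESCs and 8.64% in mOPCs.

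The genes whose 5′ end levels were nearest to those of Pvt1 over the 6 libraries, by Euclidean distance of log2(CPM + 1), were Gtf3c2 (0.380), Gm29609 (0.404), Gm27913 (0.438), 2010111I01Rik (0.484) and Tial1 (0.521). Gm27913 counts the tags of Pvt1 itself. Gm29609 had nearly the levels of Gtf3c2 in every library, both lie on chromosome 5, and whether they count the same starts was not checked. Those nearest to Myc were Zfyve28 (0.338) and Acox3 (0.426), also on chromosome 5, and Fyn (0.529), Cyfip2 (0.551) and Fam13c (0.562) on other chromosomes.

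Genes around the network were taken from lists of known roles, beside a median log2 difference of -0.19 over all 18490 tested genes, of which 91.0% were called, 7788 as higher and 9044 as lower in mOPCs. No list was tested as a whole. Of 4 further partners of MAX and MLX, 1 was higher and 3 lower in mOPCs (median -1.19). Mga, a large repressor that pairs with MAX, fell from 122.6 ± 9.03 to 27.8 ± 2.53 CPM. Mlxip, a glucose-sensing factor that pairs with MLX, rose from 6.52 ± 1.24 to 13.7 ± 0.813, and the related Mlxipl went from 11.2 ± 0.854 to no tag (at least 339.3-fold higher in mESCs). Of 12 MYC cofactors 4 were higher and 7 lower (median -0.52), a share called near that of all genes, with Trrap (1.37) and Kat2a (1.06), parts of histone acetyltransferase complexes, rising most and Ruvbl2 (-2.42), a helicase of such complexes, and Wdr5 (-1.80), a histone methyltransferase subunit, falling most on the log2 scale. Of 5 corepressors of the MXD proteins 1 was higher, Hdac2 (0.26), and 3 lower (median -1.11), among them the deacetylase Hdac1 (-2.87) and the scaffold Sin3a (-1.15).

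Of 9 genes of MYC protein turnover, 1 was higher, 5 were lower and 3 were not called in mOPCs (median -1.42), so that fewer were called than the 91.0% of all genes. Gsk3b, a kinase that marks MYC for degradation, had a log2 difference of 1.26, and the mitotic kinases Plk1 and Aurka, which stabilise MYC proteins, had -3.67 and -2.82.

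Of 25 genes known to be activated by MYC, 2 were higher, 22 lower and 1 not called in mOPCs (median -1.96), beside 7788 higher and 9044 lower of all 18490 genes. Their summed level was 12501.9 to 13784.5 CPM in mESCs and 2631 to 2673 in mOPCs. Much of the fall in this sum was that of 1 gene, Npm1, with 7161 ± 495 in mESCs and 234 ± 19.9 in mOPCs. The genes that rose were Ccnd2, a cyclin (2.62 ± 0.297 to 20.3 ± 3.71), and Cad, an enzyme of pyrimidine synthesis (148.3 ± 13.4 to 941.1 ± 40.6). Cad lies on chromosome 5, as does Mxd4, and a part for its place was not tested. Tert, the telomerase reverse transcriptase, had 1871 tags in mESCs and 1 in mOPCs, and the hexokinase Hk2 fell from 155.9 ± 7.18 to 3.17 ± 0.0680. Of 8 genes known to be repressed by MYC, 4 were higher and 2 lower (median 0.45), with Cdkn2c (1.94), a cell cycle inhibitor, and Ndrg2 (1.85), a differentiation gene, rising most, and the stress-induced Cdkn1a (-1.13) and Gadd45a (-0.24) falling. A direction of a list in this comparison says nothing on which factor acts on it.

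**Figure D5:**
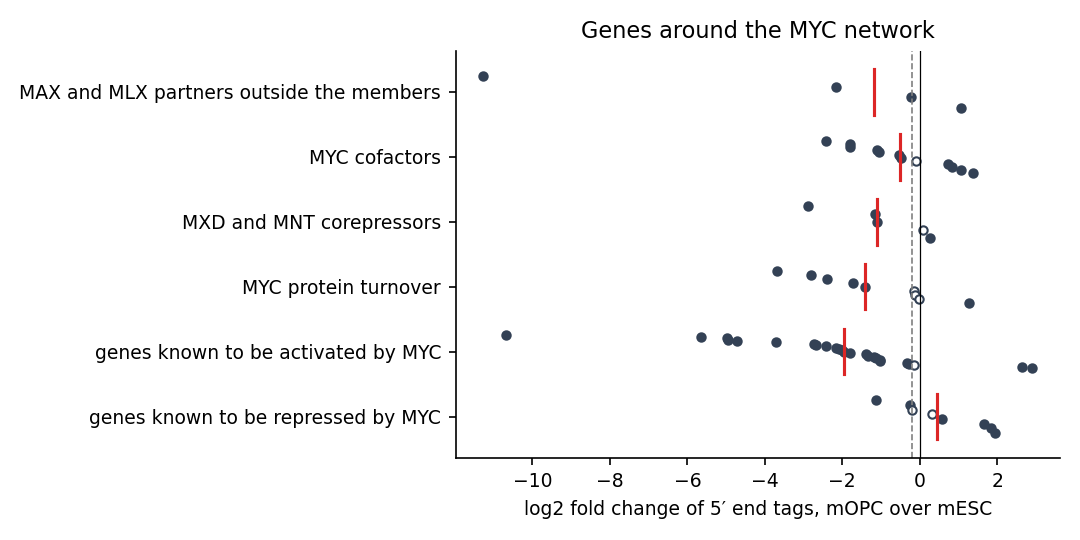
Log2 difference of 5′ end tags between mOPCs and mESCs for the tested genes of 6 lists, filled where the edgeR adjusted p passed 0.05 and open where not, with red bars for list medians and a dashed line for the median of all tested genes (-0.19). Of the 25 genes known to be activated by MYC, 22 lie to the left as lower in mOPCs.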

How the data were processed

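CAGE libraries were made from nuclear RNA by random-primed reverse transcription and cap trapping, and sequenced on an Illumina instrument. The deposited files list, for each start position and strand, the number of tags, as raw counts made by the authors. Their processing notes name CASAVA 1.8, BWA 0.5.9 and mm10, while the methods describe barcode splitting, linker trimming and unique alignment with another aligner, bowtie, and which one made the counts was not settled. Counts per gene were summed here from GENCODE M21 within 500 bp of annotated 5′ ends, and in the body outside these windows, each on the gene's strand. Annotated ends with overlapping windows were joined to 1 group. Fits across all features used edgeR 4.0.16 (quasi-likelihood, TMM scaling, filterByExpr, Benjamini-Hochberg adjustment at 0.05) and its diffSpliceDGE test for usage, in R 4.3.3, after tests on simulated data. Single shares were compared by two-sided exact permutation tests, for which p = 0.1 is the smallest value with 3 libraries against 3, without adjustment. Tags carry no molecular identifiers, so limits based on 3 counts cover counting error only. Alternatives were DESeq2 1.42.0, library totals, no filter, other windows, cluster settings, a replicate block and leaving out each library. All members are named, with their main 5′ ends and part of their clusters, the 2 largest rises and falls called per list and the 5 genes nearest to Pvt1 and Myc. Npm1 is named for its level. The members and lists were chosen with earlier results of these data known.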

Additional observations from a re-analysis of the deposited data

How the results depend on the processing

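Counts of called features stayed within 1.5 times of those given under the alternatives run, except 5′ end usage, which gave 6626 in place of 4133 groups with no filter on low counts. Without 1 library the calls were 16699 to 17477 for 5′ ends, 11380 to 12860 for bodies, 21001 to 22705 for groups, 30707 to 31272 for clusters and 3855 to 4547 for usage. The sign turned for Max (0.047) and Mxi1 (0.035) at 5′ ends with no filter, for Max (0.60) and Mnt (0.61) in bodies with library totals, for Mnt in bodies (0.73) and in its body share (4.34 points higher in mOPCs) with 100 bp windows, and for the second Mycl cluster with library totals (0.024). In usage it turned for values near 0 or with few tags: Mxd4 group 1 without mOPC library 1, 2 or 3 (0.000274, 0.00145 and 0.000225, with a range over the libraries from -0.0047), Mxd4 group 3 without mESC library 1 (2.05, range from -2.23) and Mnt group 2 without mESC library 2 (0.30, range from -0.53). The causes were not tested. At 5′ ends of the members, 125 of the repeated values kept direction and side of the threshold, and all 81 repeated composition values did. Replicate numbers did not pair the samples (correlations of 0.011, 0.061 and 0.014 between same-numbered libraries). With the number as a replicate block, calls were 16833 for 5′ ends, 11802 for bodies, 20989 for groups, 30866 for clusters and 4057 for usage. Body tags of Mxd3 and Mycl were under 1 CPM in every library, which limits the precision of their shares.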

Other observations

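The genes around Mxd4 were looked at after the values were seen. Of 19 protein-coding genes tested within 500000 bp of it, 15 were higher and 4 lower in mOPCs, with a median log2 difference of 1.96 (edgeR quasi-likelihood test), beside 7788 higher and 9044 lower of all 18490 genes tested and a median of -0.19. Around the other members the median of such neighbours was between -1.81 (Max, 8 genes) and 0.32 (Mxd1, 15 genes), apart from Pvt1, whose only tested coding neighbour is Myc. At Mxi1, 2 of 7 neighbours were higher and 5 lower.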
